A study of Mus musculus with 6 samples.

Results

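The transcripts described here are those of 9 chemokine receptors that T cells use to enter or leave tissues and tumors, namely Ccr2, Ccr4, Ccr6, Ccr7, Ccr8, Ccr10, Cxcr3, Cxcr4 and Cxcr6. They were taken by gene symbol from a table of 15319 listed symbols, and all 9 were found there with counts. RNA-Seq was performed on tumor-infiltrating Tregs from the lungs of mice that carried lung-colonizing tumors of LLC, a mouse Lewis lung carcinoma line. WT mice carried the Foxp3 Yfp-Cre allele, and cKO mice carried the same allele together with Xrcc6 flox/flox, so that Xrcc6, which encodes the DNA repair protein Ku70, was deleted in cells that express Foxp3. Both groups were C57BL/6J mice aged 8 to 10 weeks that received 1000000 LLC cells through the tail vein 21 days before the tumors were taken, and each group gave 3 libraries. Cre in this allele is made from the Foxp3 locus together with YFP, and the methods describe sorting Tregs as CD4+CD25+YFP+ for spleen and lymph nodes, with no separate gate stated for tumors. The study proposed that Tregs without Ku70 may infiltrate tumors poorly, and receptors of this kind guide T cells into tissue. It also reported, from flow cytometry, a smaller percentage of Tregs in LLC lung tumors of cKO mice than of WT mice. Receptor RNA was measured here in cells already in the tumor, so it cannot show whether fewer cKO Tregs entered. The labels do not say that the libraries came from separate animals. The p-values set the group difference against the spread between these samples, which may be partly technical.

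Chemokine receptors are G protein-coupled receptors that let a cell move up a gradient of secreted chemokine. Naive and central memory T cells use Ccr7 to enter lymph nodes, and they use the sphingosine-1-phosphate receptor S1pr1 to leave them. Effector Tregs in tissues and tumors lower these and carry receptors such as Ccr4, Ccr8, Cxcr3 and Cxcr6, and Ccr8 is widely used as a marker of tumor-resident Tregs. Klf2 is a transcription factor that maintains the Ccr7 and S1pr1 program of recirculating T cells.

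The receptor genes lie on 5 chromosomes of GRCm38, and 4 of the 9, Ccr2, Ccr4, Ccr8 and Cxcr6, lie on chromosome 9. Upstream sequences from RefSeq (GRCm38.p6) were matched by symbol for 7 of the 9 genes, and Ccr7 and Ccr10 had no entry. The following 250 bases before the RefSeq start are shown for Ccr8 and Cxcr6, which were highest together in the same library, and for Ccr4, a steadier receptor of the same chromosome. They cover chr9:120091883-120092132 (plus strand) for Ccr8, chr9:123806227-123806476 (plus strand) for Cxcr6 and chr9:114496545-114496794 (minus strand) for Ccr4. The Ccr4 window belongs to a downstream start, since it lies inside the span of the gene in the GENCODE annotation (114490316 to 114504916). Capitals mark a motif match on either strand.
Ccr8: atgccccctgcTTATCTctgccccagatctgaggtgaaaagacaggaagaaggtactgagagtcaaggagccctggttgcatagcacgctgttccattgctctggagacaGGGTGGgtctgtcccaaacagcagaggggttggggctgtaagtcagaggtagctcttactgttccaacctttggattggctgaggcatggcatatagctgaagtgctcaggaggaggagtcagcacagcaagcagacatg
Cxcr6: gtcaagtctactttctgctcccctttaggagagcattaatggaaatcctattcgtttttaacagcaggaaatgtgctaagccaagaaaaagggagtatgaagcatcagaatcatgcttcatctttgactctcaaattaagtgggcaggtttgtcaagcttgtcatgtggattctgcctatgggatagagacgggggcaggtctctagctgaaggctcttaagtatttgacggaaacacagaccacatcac
Ccr4: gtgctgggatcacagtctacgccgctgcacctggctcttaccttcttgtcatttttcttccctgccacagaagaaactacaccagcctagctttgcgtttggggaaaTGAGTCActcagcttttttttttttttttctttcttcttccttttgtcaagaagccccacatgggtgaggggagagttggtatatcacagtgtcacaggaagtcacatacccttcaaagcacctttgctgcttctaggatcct
Both strands were searched for 5 short motifs, and the matches in the 3 sequences shown do not overlap each other. The forkhead motif of FOXP3 and FOXO1 was spelled GTAAACA. For AP-1, which BATF and JUN form, the letters were TGANTCA. The T-box motif of TBX21 was AGGTGT. For GATA3 the letters were AGATAA. The KLF motif, as for KLF2, was CCACCC. The Ccr8 window held a GATA match 239 bases and a KLF match 140 bases before the start. In the Ccr4 window there was 1 AP-1 match, 143 bases before the start, and the Cxcr6 window held none of the 5 motifs. A GATA match was also found 97 bases before a downstream start of Ccr2 and 70 bases before a downstream start of Ccr6. The windows of Cxcr3, Cxcr4 and the upstream start of Ccr6 held none. Most of the Ccr2 window (124101933 to 124102182) lay inside the GENCODE span of that gene, which begins at 124101950. The Cxcr3 window (101734148 to 101734397, minus strand) lay partly inside its gene, which ends at 101734269. Among 32851 mouse promoter windows of this length, 9.99% held the GATA, 28.1% the KLF, 6.75% the AP-1, 11.8% the T-box and 3.17% the forkhead motif. These are matches of letters in a short window and describe no binding.

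The WT libraries held 19032620 to 21707706 counts in total and the cKO libraries 20762042 to 23159815. Where 3 values are given for a group, they stand in the order of replicates 1, 2 and 3. WT replicate 2 stood apart, with 11513 genes at 1 count or more against 14442 to 14737 in the other 5 libraries, so the receptors are also compared without it. Counts were scaled to CPM by edgeR's TMM method, and 3 counts, the limit that a count of 0 allows, were worth 0.133 to 0.156 CPM (counting error only). Xrcc6 itself was at 20.9, 63.1 and 23.8 CPM in the WT libraries and at 5.24, 3.51 and 4.18 CPM in the cKO libraries. The samples were checked with 7 markers (Foxp3, Il2ra, Ctla4, Ikzf2, Cd3e, Cd3g and Cd4), none of which was at 0 in any library. Their summed level was 4025 to 5290 CPM in the WT group and 4312 to 4792 CPM in the cKO group. Other CD4 T cells also express Cd3e, Cd3g and Cd4, so the sum does not tell Tregs from them. By sign, 4 markers were higher and 3 lower in cKO Tregs (54.5% of all genes were higher). Ctla4 was at 1247 to 1395 CPM in WT and 875 to 1236 CPM in cKO libraries, groups apart as for 3.23% of all genes in that direction. Foxp3, the lineage factor of Tregs, was at 150 to 241 CPM in WT and 189 to 282 CPM in cKO libraries.

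Markers of other cells summed to lower levels than the 7 markers above and in part moved with the libraries. Lyz2, a monocyte and macrophage marker, was at 129, 474 and 500 CPM in WT and 170, 323 and 625 CPM in cKO libraries. Foxp3 was at 241, 150 and 208 CPM in WT and 282, 189 and 242 CPM in cKO libraries. The 9 monocyte and macrophage markers, all with counts in every library, summed to 192, 717 and 728 CPM across the WT libraries and to 244, 592 and 1110 CPM across the cKO libraries. The 6 B cell markers summed to 15.1 to 38.02 CPM in WT and 12.6 to 55.1 CPM in cKO libraries, with Ms4a1 at 0 in WT replicate 2 and Pax5 at 0 in WT replicates 1 and 2 and cKO replicate 1. For CD8 T and NK cells, 6 of 7 markers had counts, with sums of 5.26 to 27.2 CPM in WT and 25.6 to 29.0 CPM in cKO libraries, and Cd8a, Klrb1c, Klrd1 and Prf1 were at 0 in WT replicate 2. Dendritic cell markers (7 of 7) summed to 17.0 to 49.9 CPM in WT and 27.2 to 35.8 CPM in cKO libraries, with Flt3, Batf3, Itgax and Clec9a at 0 in WT replicate 2 and Clec9a also at 0 in WT replicate 3 and cKO replicate 1. Neutrophil markers (5 of 7) summed to 2.44 to 10.95 CPM in WT and 7.98 to 13.5 CPM in cKO libraries. Of these, Retnlg was at 0 in all 3 WT libraries, S100a9 at 0 in WT replicate 2, and Ly6g at 0 in WT replicates 2 and 3 and cKO replicate 1. Lung epithelium markers (6 of 6) summed to 37.0 to 103 CPM in WT and 41.0 to 70.1 CPM in cKO libraries. Those of endothelium and stroma (7 of 7) summed to 61.6 to 82.4 CPM in WT and 70.9 to 96.8 CPM in cKO libraries. The part of these cells in the receptor levels was not tested.

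In level, the receptors ranged from abundant to near absent. Ordered by CPM per kb of exon, averaged over the 6 libraries, they were Ccr8 (564), Ccr7 (416), Cxcr6 (195.5), Cxcr4 (172), Cxcr3 (130), Ccr4 (69.2), Ccr6 (46.8), Ccr2 (21.4) and Ccr10 (0.294). Ccr8 stood at percentile 99.4 and Ccr7 at percentile 99.1 of the 14757 genes with an exon length, Ccr2 at 85.2 and Ccr10 at 24.4. Several neighbours in this order were not separated by the spread between libraries. Ccr8 was above Ccr7 in 4 of 6 libraries, Cxcr6 above Cxcr4 in 3 of 6, and Cxcr4 above Cxcr3 in 4 of 6. Ccr7 was above Cxcr6, and Ccr4 above Ccr6, in 5 of 6 libraries. Cxcr3 was above Ccr4, Ccr6 above Ccr2 and Ccr2 above Ccr10 in 6 of 6. The place of Ccr2 depends on its exon length of 6.76 kb, against 2.32 kb for Ccr6. In CPM not divided by length, the mean of Ccr2 (143 in WT, 147 in cKO) was above that of Ccr6 (127 and 89.8). Of the summed CPM per kb of the 9 receptors, Ccr8 made up 27.8% to 45.3% and Ccr7 14.1% to 36.2%, depending on the library.

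**Figure D1:**
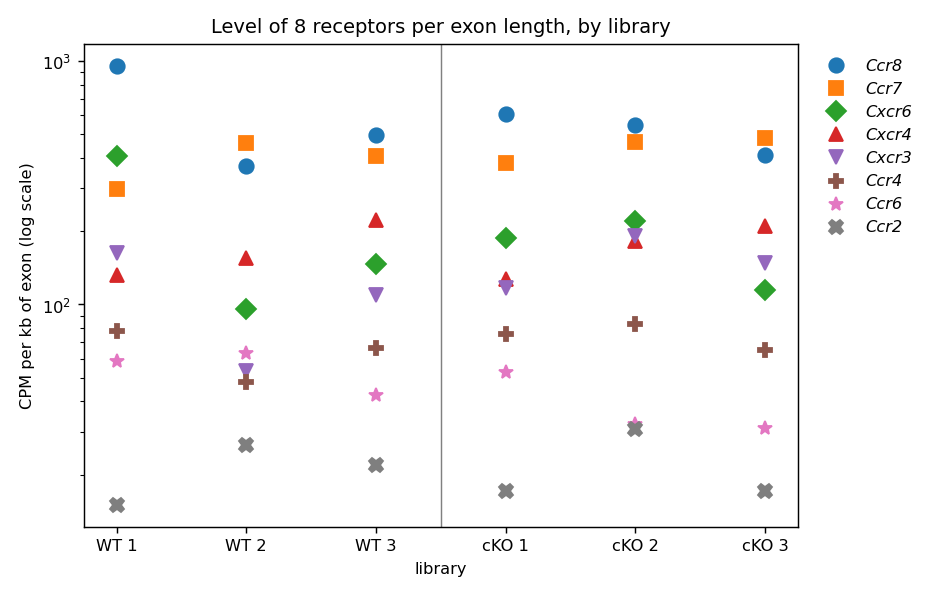
The level of 8 receptors in each of the 6 libraries, as CPM per kb of exon on a log axis, with 1 point per receptor and library and a line between the groups (Ccr10, at 0 in WT replicate 2, is not drawn). Ccr8 and Ccr7 were the highest pair in 5 of the 6 libraries; in WT replicate 1 Cxcr6 (409) was above Ccr7 (298).

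None of the 9 receptors passed the test for a difference between cKO and WT Tregs. With edgeR's quasi-likelihood test and Benjamini-Hochberg adjustment over 15315 genes, 0 of 9 passed an adjusted p of 0.05 (0.0% of all genes tested did) and 0 of 9 an unadjusted p of 0.05 (1.81% of all genes tested did). DESeq2 also gave 0 of 9 at either limit (0.0131% and 2.01% of its genes passed). The adjusted p from edgeR was 0.984 for 7 receptors and 0.996 for Ccr2 and Cxcr4. For the deleted gene Xrcc6, edgeR also gave an adjusted p of 0.984 (unadjusted p = 3.06e-04), while DESeq2 gave an adjusted p of 1.22e-05. By sign, 6 receptors were higher and 3 lower in cKO Tregs, where 54.5% of all genes were higher, and the median log2 fold change of the 9 was 0.04, equal to the 0.04 of all genes tested. Without WT replicate 2, edgeR gave 0 of 9 at an adjusted p of 0.05 (0.00654% of all genes) and 1 of 9, Ccr10, at an unadjusted p of 0.05 (3.01% of all genes). The signs were then 5 higher and 4 lower (48.6% of all genes were higher), and the median was 0.05 against -0.01 for all genes. In bulk RNA, fewer cells that carry a receptor and less receptor RNA per cell cannot be told apart.

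**Figure D2:**
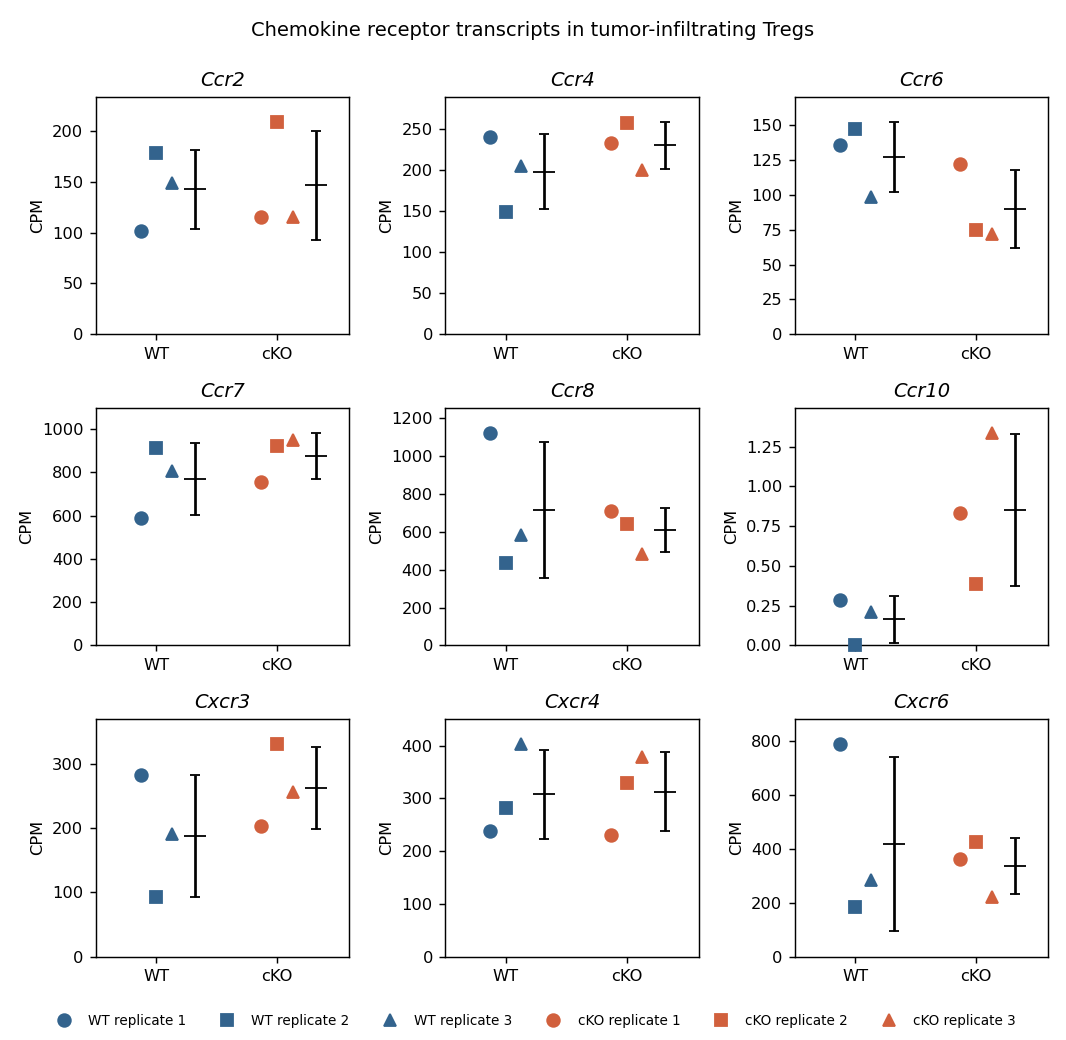
CPM of each of the 9 receptors, with blue points for the 3 WT and orange points for the 3 cKO libraries, the point shape giving the replicate number, and black bars giving the mean and SD of each group. The groups overlap for 8 receptors and do not for Ccr10, which lies below 1.5 CPM in every library.

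Ccr8, the receptor for Ccl1 and Ccl8 and the most abundant receptor per exon length, was at 1122, 436 and 586 CPM across the WT libraries and at 711, 641 and 481 CPM across the cKO libraries. One WT library was above the cKO range and another was below it, so the groups overlapped. The means were 715 ± 361 CPM (SD, n = 3) in WT and 611 ± 118 CPM (SD, n = 3) in cKO Tregs. The gene lies on the plus strand of chromosome 9, from 120092114 to 120094906 (GRCm38). In edgeR, cKO over WT gave a log2 fold change of -0.23 (SE 0.36, 95% interval -1.06 to 0.61, unadjusted p = 0.549), an interval that spans folds of 0.478 to 1.53. Without WT replicate 2 it was -0.48 (SE 0.28, unadjusted p = 0.12 from edgeR), and without WT replicate 1 it turned to 0.26 (SE 0.24, unadjusted p = 0.329).

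Cxcr6, the receptor for the membrane-bound chemokine Cxcl16 and a receptor of tissue-resident T cells, had the same order of WT libraries. It was at 789, 184 and 283 CPM across the WT libraries and at 361, 427 and 221 CPM across the cKO libraries. Cxcr6 spans 123806475 to 123811760 of chromosome 9 (plus strand, GRCm38). WT replicate 1 was above and WT replicate 2 below all cKO libraries, and the highest WT library was 4.28 times the lowest. The means were 419 ± 324 and 336 ± 105 CPM (SD, n = 3 each), with a log2 fold change of -0.32 (SE 0.53, 95% interval -1.55 to 0.91, edgeR unadjusted p = 0.565). Leaving out WT replicate 2 gave -0.67 (SE 0.40, unadjusted p = 0.13), and leaving out WT replicate 1 gave 0.53 (SE 0.33, unadjusted p = 0.16), so that the direction rested on a single library. Cxcr6 overlaps Fyco1 on the other strand without a shared exon base, and Fyco1 was at 330 to 664 counts in the WT and 571 to 674 counts in the cKO libraries. Whether the counting used strand is not given in the sources used here.

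Ccr4, the receptor for Ccl17 and Ccl22 and a main receptor of effector Tregs, was at 241, 149 and 204 CPM across the WT libraries and at 233, 257 and 200 CPM across the cKO libraries. The gene lies on the minus strand of chromosome 9, from 114490316 to 114504916 (GRCm38). It was steady apart from a low WT replicate 2, and the groups overlapped. The means were 198 ± 46.1 and 230 ± 28.3 CPM (SD, n = 3 each), and the log2 fold change was 0.22 (SE 0.21, 95% interval -0.27 to 0.70, edgeR unadjusted p = 0.329). Without WT replicate 2 it was 0.05 (SE 0.16, unadjusted p = 0.779), with an interval that spans folds of 0.798 to 1.34.

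Ccr2, the receptor for Ccl2, Ccl7 and Ccl12, is used by monocytes as well as by activated Tregs. It was at 102, 179 and 149 CPM across the WT libraries and at 116, 209 and 116 CPM across the cKO libraries, so that the groups overlapped widely. Ccr2 spans 124101950 to 124113557 of chromosome 9 (plus strand, GRCm38). The means were 143 ± 38.8 and 147 ± 53.9 CPM (SD, n = 3 each), and the log2 fold change was 0.04 (SE 0.30, 95% interval -0.66 to 0.74, edgeR unadjusted p = 0.904). The sign was not fixed by the data. It was 0.23 without WT replicate 2 (unadjusted p = 0.441), -0.16 without WT replicate 1 and -0.31 without cKO replicate 2. Ccr2 was lowest in WT replicate 1, where the monocyte and macrophage markers were also lowest (192 CPM), and it was at 116 CPM in cKO replicate 3, where those markers were highest (1110 CPM). The part of these cells in the Ccr2 level was not tested. Ccr2 was the one receptor of the 9 with counts that were not whole, in 6 of 6 libraries, so reads that were divided between genes make its values less certain.

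Ccr6, the receptor for Ccl20 and a receptor of Th17 cells, came closest to the threshold among the receptors above 1 CPM. It was at 136, 147 and 98.9 CPM across the WT libraries and at 122, 75.0 and 72.2 CPM across the cKO libraries. The gene lies on the plus strand of chromosome 17, from 8236043 to 8257141 (GRCm38). A pair of cKO libraries was below all WT libraries, but cKO replicate 1 was inside the WT range. The means were 127 ± 25.1 and 89.8 ± 28.2 CPM (SD, n = 3 each), and the log2 fold change was -0.50 (SE 0.25, 95% interval -1.09 to 0.09, edgeR unadjusted p = 0.0851, adjusted p = 0.984). An exact permutation test (two-sided) of the mean CPM returned p = 0.2, and 0.1 is the smallest that 3 against 3 can reach. Without WT replicate 2 the value was -0.39 (unadjusted p = 0.136). Without WT replicate 3 it was -0.65 (unadjusted p = 0.0431, adjusted p = 0.851) and without cKO replicate 1 it was -0.79 (unadjusted p = 0.0107, adjusted p = 0.996), where 3.76% and 1.2% of all genes had an unadjusted p under 0.05 in edgeR.

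Ccr10, the receptor for Ccl27 and Ccl28 in skin and mucosa, was near the limit of detection. It had 6, 0 and 4 counts across the WT libraries and 18, 8 and 30 counts across the cKO libraries, which correspond to 0.287, 0 and 0.208 CPM and to 0.835, 0.384 and 1.33 CPM. Ccr10 spans 101172997 to 101175443 of chromosome 11 (minus strand, GRCm38). The count of 0 in WT replicate 2 allows up to 0.141 CPM. All cKO libraries were above all WT libraries, as were 5.01% of all genes tested, and it was the 1 receptor of the 9 whose groups did not overlap in either direction (8.24% of all genes). The means were 0.165 ± 0.148 and 0.851 ± 0.475 CPM (SD, n = 3 each), and the log2 fold change was 2.33 (SE 1.21, 95% interval -0.51 to 5.17, edgeR unadjusted p = 0.0938, adjusted p = 0.984). With WT replicate 2 left out it was 1.75 (SE 0.74, unadjusted p = 0.0434, adjusted p = 0.997), and 3.01% of all genes reached an unadjusted p of 0.05 there. An exact permutation test (two-sided) returned p = 0.1, again the smallest possible. Ccr10 was also the one receptor that did not pass edgeR's filterByExpr at a minimum count of 10. It overlaps Cntnap1 on the other strand without a shared exon base, and Cntnap1 was at 2 to 13 counts in the WT and 7 to 10 counts in the cKO libraries. Among the markers of other cells, the neutrophil genes S100a9 and Retnlg had the same order of groups at a like level, with 0 to 0.208 and 0 CPM in WT and 1.11 to 1.91 and 0.625 to 1.51 CPM in cKO libraries, and their part in the Ccr10 counts was not tested. They were 2 of the 5 neutrophil markers with counts, of which 4 were higher and 1 lower in cKO Tregs (54.5% of all genes were higher). The groups overlapped for the others, with S100a8 at 0.335, 7.05 and 3.02 CPM in WT and 3.80, 3.84 and 5.43 CPM in cKO libraries and Csf3r at a log2 fold change of -0.08.

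Cxcr3, the receptor for the interferon-induced chemokines Cxcl9, Cxcl10 and Cxcl11 and a receptor of Th1-like Tregs, was at 282, 92.5 and 190 CPM across the WT libraries and at 203, 330 and 256 CPM across the cKO libraries. The gene lies on the minus strand of chromosome X, from 101731535 to 101734269 (GRCm38). WT replicate 2 was far below the other libraries, while WT replicate 1 was inside the cKO range. The means were 188 ± 94.99 and 263 ± 64.2 CPM (SD, n = 3 each), and the log2 fold change was 0.48 (SE 0.39, 95% interval -0.42 to 1.38, edgeR unadjusted p = 0.251). It was 0.16 (SE 0.25, unadjusted p = 0.542) without WT replicate 2 and 0.90 (SE 0.36, unadjusted p = 0.0441, adjusted p = 0.677) without WT replicate 1, where 5.71% of all genes had an unadjusted p under 0.05.

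Cxcr4, the receptor for Cxcl12, which retains cells in bone marrow and stroma, was at 238, 282 and 403 CPM across the WT libraries and at 231, 329 and 379 CPM across the cKO libraries. Cxcr4 spans 128588199 to 128592293 of chromosome 1 (minus strand, GRCm38). Both groups covered nearly the same range. The means were 307 ± 85.2 and 313 ± 75.4 CPM (SD, n = 3 each), and the log2 fold change was 0.03 (SE 0.26, 95% interval -0.58 to 0.64, edgeR unadjusted p = 0.923), an interval of folds from 0.667 to 1.56. With 1 library left out the value ranged from -0.13 (without cKO replicate 3) to 0.28 (without WT replicate 3), and it was negative in 4 of the 6 such fits, at -0.03 without WT replicate 2.

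Ccr7, the lymph node receptor for Ccl19 and Ccl21, was at 589, 911 and 808 CPM across the WT libraries and at 757, 922 and 951 CPM across the cKO libraries. The gene lies on the minus strand of chromosome 11, from 99144196 to 99155077 (GRCm38). WT replicate 1 was the lowest library, and the other libraries overlapped. The means were 770 ± 165 and 877 ± 105 CPM (SD, n = 3 each), and the log2 fold change was 0.19 (SE 0.22, 95% interval -0.33 to 0.71, edgeR unadjusted p = 0.427). Without WT replicate 2 it was 0.33 (SE 0.21, unadjusted p = 0.152), and without WT replicate 1 it was 0.03 (SE 0.20, unadjusted p = 0.895).

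**Figure D3:**
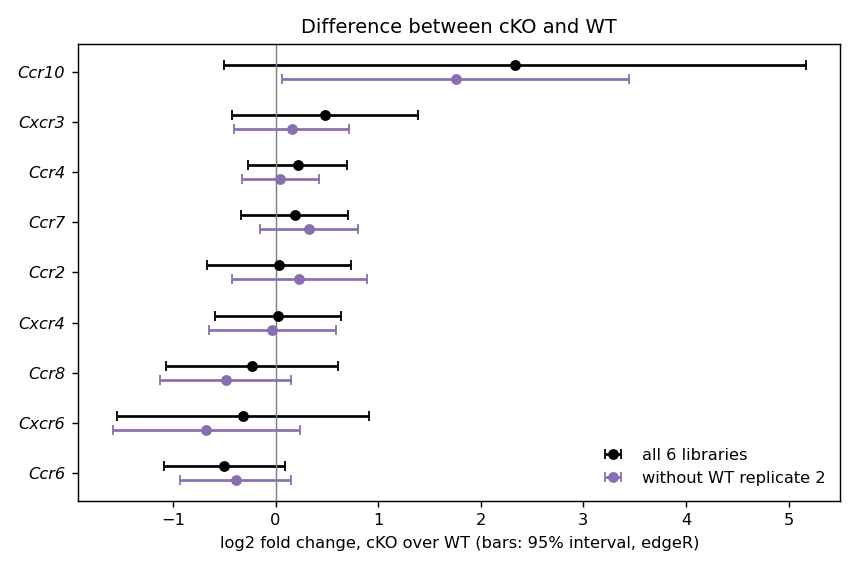
Log2 fold change of cKO over WT for each receptor from edgeR, with 95% intervals, over all 6 libraries (black) and without WT replicate 2 (purple). With all 6 libraries each interval includes 0; without WT replicate 2 that of Ccr10 lies above 0 (0.07 to 3.44).

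**Figure D4:**
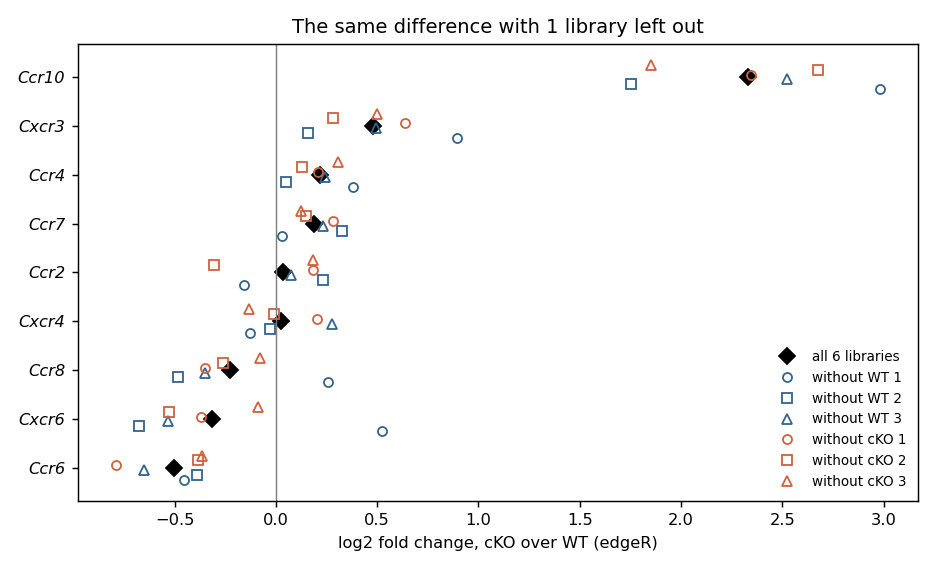
Log2 fold change of cKO over WT for each receptor over all 6 libraries (black diamonds) and with 1 library left out (open symbols, blue for WT and orange for cKO). Ccr8 moves from -0.23 to 0.26 and Cxcr6 from -0.32 to 0.53 when WT replicate 1 is left out, while Ccr6, Ccr4, Ccr7, Cxcr3 and Ccr10 stay on 1 side of 0 in all 6 such fits.

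The balance of a tissue receptor against the lymph node receptor varied more among the WT libraries than between the groups. The CPM of Ccr8 over that of Ccr7, a ratio that no scaling of the library can move, came to 1.90, 0.478 and 0.725 across the WT libraries and to 0.939, 0.695 and 0.506 across the cKO libraries. The ratio of Cxcr6 to Ccr7 was 1.34, 0.202 and 0.350 in the WT and 0.477, 0.463 and 0.232 in the cKO libraries. For both ratios WT replicate 1 was the highest library and WT replicate 2 the lowest, so the cKO libraries lay inside the WT range. On the log2 scale the Ccr8 to Ccr7 ratio was -0.20 ± 1.02 in WT and -0.53 ± 0.45 in cKO Tregs, and the Cxcr6 to Ccr7 ratio was -1.13 ± 1.40 and -1.43 ± 0.59 (SD, n = 3 each).

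WT replicate 1 was the highest of the 6 libraries for 19.1% and the lowest for 16.5% of the 11568 genes with a mean of at least 1 CPM. As the difference of log2(CPM + 0.5) from the mean of the 6 libraries, Ccr8 was at 0.83 and Cxcr6 at 1.24 in WT replicate 1. Ccl1, the ligand of Ccr8, was at 2.07 there and Ccrl2, a chemerin-binding atypical receptor, at 0.59, and WT replicate 1 was the highest library for all 4 genes. Cxcr3 (0.43) and Ccr4 (0.19) were also above the mean in WT replicate 1 but were highest in cKO replicate 2 (0.65 and 0.28). Ccr7 was at -0.46, S1pr1 at -1.31 and Klf2 at -1.66 in WT replicate 1, the lowest of the 6 for each. These genes were picked from the lists after their values were seen, and the pattern is given as a description of 1 library. The monocyte and macrophage markers were lowest in WT replicate 1 as well (192 CPM), and the cause was not tested.

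**Figure D5:**
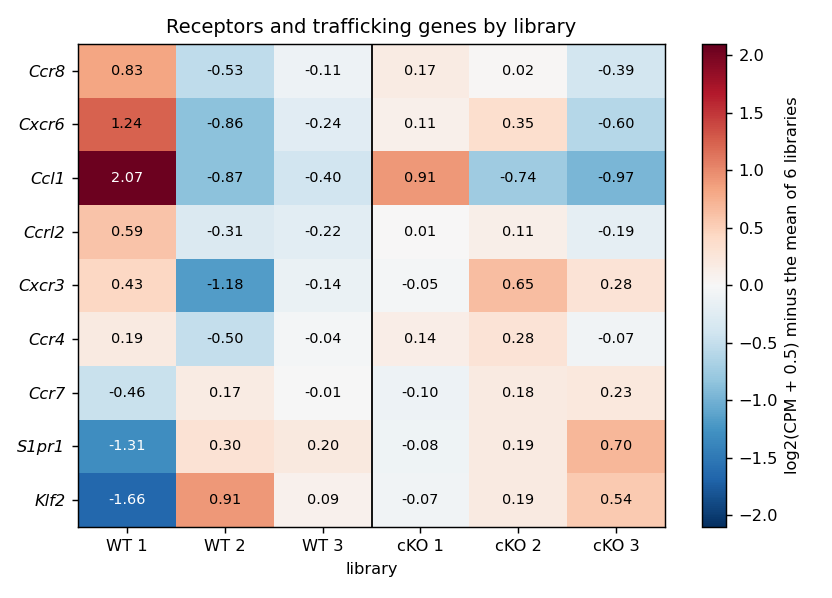
Difference of log2(CPM + 0.5) from the mean of the 6 libraries for 9 receptors and trafficking genes (rows) in each library (columns), red for above and blue for below that mean, with a line between WT and cKO. In WT replicate 1 Ccr8, Cxcr6, Ccl1 and Ccrl2 are the highest and Ccr7, S1pr1 and Klf2 the lowest of the 6 libraries. Cxcr3 and Ccr4 are highest in cKO replicate 2.

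The other 10 typical chemokine receptors gave few differences. All 10 had counts, 7 were higher and 3 lower in cKO Tregs (54.5% of all genes were higher), 1 had an unadjusted p under 0.05 (1.81% of all genes did) and 0 an adjusted p under 0.05, and their median log2 fold change was 0.46 against 0.04 for all genes. With WT replicate 2 left out, the signs were 5 and 5, the median was 0.10 against -0.01, and 1 was higher and 1 lower at an unadjusted p under 0.05 (3.01% of all genes). The lower one there was Xcr1 (log2 fold change -0.74, edgeR unadjusted p = 0.0382), named after its values were seen. Cxcr5, the follicular receptor for Cxcl13, was at 18.7 ± 10.4 and 19.5 ± 4.18 CPM, and Cx3cr1, the fractalkine receptor, at 13.8 ± 6.49 and 20.6 ± 8.60 CPM (SD, n = 3 each). The receptor with the low p was Ccr1l1, with 0, 0 and 0 counts in WT and 11, 61 and 1 counts in cKO libraries (edgeR unadjusted p = 0.0182, adjusted p = 0.984), so that most of its reads came from cKO replicate 2. Of the 4 atypical receptors with counts, 3 were higher and 1 lower (54.5% of all genes were higher), and 0 had an unadjusted p under 0.05 (1.81% of all genes did). Their median was 0.82 against 0.04 for all genes (0.27 against -0.01 without WT replicate 2), but only Ccrl2 exceeded a mean of 1 CPM. Ccrl2 was at 197 ± 72.4 CPM in WT and 183 ± 19.2 CPM in cKO Tregs (SD, n = 3 each) with a log2 fold change of -0.10 (SE 0.26). Ackr3, a scavenger of Cxcl12, was at 0 to 0.886 CPM in WT and 0.356 to 0.913 CPM in cKO libraries, and Ackr4 was at or under 0.133 CPM in all 6.

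Of the receptors' ligands, 15 of the 19 on the list were detected, of which 7 were higher and 8 lower in cKO Tregs (54.5% of all genes were higher). At an unadjusted p under 0.05 there was 1 in each direction (1.81% of all genes), at an adjusted p under 0.05 there was 0, and the median log2 fold change was -0.05 (0.10 without WT replicate 2). Cxcl10, a ligand of Cxcr3 that interferon induces, was at 121, 163 and 110 CPM in WT and 96.7, 105 and 75.1 CPM in cKO libraries. The groups did not overlap, as for 3.23% of all genes in that direction, and the log2 fold change was -0.51 (SE 0.20, edgeR unadjusted p = 0.0382, adjusted p = 0.984), or -0.33 (unadjusted p = 0.0791) without WT replicate 2. Ccl1 was at 61.4, 7.61 and 10.7 CPM in WT and 27.3, 8.36 and 7.07 CPM in cKO libraries, with a log2 fold change of -0.90 (SE 0.87), so it was highest in replicate 1 of both groups. Ccl7, a Ccr2 ligand, was at 2.20, 46.6 and 25.8 CPM in WT and 4.83, 17.5 and 33.9 CPM in cKO libraries. It was lowest in replicate 1 of both groups, as were the monocyte and macrophage markers. The other low p belonged to Ccl21a, a Ccr7 ligand of lymphoid stroma, with 0, 0 and 0 counts in WT and 6, 0 and 14 counts in cKO libraries (edgeR unadjusted p = 0.044, adjusted p = 0.984).

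Downstream of the receptors, 33 of 33 signaling and cytoskeletal genes were detected, 22 were higher and 11 lower in cKO Tregs (54.5% of all genes were higher), 1 had an unadjusted p under 0.05 (1.81% of all genes did) and 0 an adjusted p under 0.05, and the median log2 fold change was 0.04, equal to that of all genes tested. The most abundant were the GTPase gene Rac2 (1981 ± 387 CPM in WT and 2196 ± 219 CPM in cKO Tregs), the actin regulator Coro1a (1566 ± 389 and 1972 ± 254 CPM) and the actin-bundling gene Lcp1 (1172 ± 251 and 1281 ± 62.6 CPM, SD, n = 3 each). Gnaq, which encodes a G protein alpha subunit, was at 31.8, 42.1 and 36.8 CPM in WT and 26.8, 26.7 and 27.8 CPM in cKO libraries. All cKO libraries were below all WT libraries, as for 3.23% of all genes. Of the 33 genes of the list, 4 did not overlap between groups (8.24% of all genes in either direction). Of these, 2 were higher (5.01% of all genes) and 2 lower (3.23%) in cKO Tregs. The log2 fold change of Gnaq was -0.45 (SE 0.17, edgeR unadjusted p = 0.0361, adjusted p = 0.984) and -0.34 without WT replicate 2 (unadjusted p = 0.0314).

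Of 15 other trafficking receptors, all with counts, 14 were higher and 1 was lower in cKO Tregs by sign, where 54.5% of all genes were higher. None of the 15 had an unadjusted p under 0.05 in edgeR (1.81% of all genes did), and the median log2 fold change was 0.32 against 0.04 for all genes. Without WT replicate 2 the counts were again 14 and 1 (48.6% of all genes were higher), 2 had an unadjusted p under 0.05 (3.01% of all genes did) and 0 an adjusted p under 0.05, and the median was 0.42 against -0.01 for all genes. The list median fell to 0.06 without WT replicate 1, against 0.11 for all genes in that fit. Of the 9 monocyte and macrophage markers, 8 were higher in cKO Tregs (median 0.89), and 9 of 9 without WT replicate 2 (median 0.97). The list holds C5ar1 and Cmklr1, which myeloid cells also express, and the part of such cells in the list was not tested. The pair without WT replicate 2 was S1pr4 (log2 fold change 0.42, edgeR unadjusted p = 0.043) and Gpr18 (0.53, unadjusted p = 0.0343). Both were named after their values were seen. S1pr1 was at 154, 472 and 440 CPM in WT and 362, 437 and 624 CPM in cKO libraries, with a log2 fold change of 0.42 (SE 0.42, unadjusted p = 0.351 from edgeR). WT replicate 1 was its low library. Cd69, which holds T cells in tissue by removing S1pr1 from the surface, was at 776 ± 213 and 781 ± 158 CPM (SD, n = 3 each), with a log2 fold change of 0.01 (SE 0.27).

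Of 16 transcription factors linked to these receptors, 8 were higher and 8 lower in cKO Tregs (54.5% of all genes were higher). None had an unadjusted p under 0.05 in edgeR (1.81% of all genes did), and the median log2 fold change was 0.04, as for all genes (0.04). Without WT replicate 2 the signs were again 8 and 8 (48.6% of all genes were higher), and the median was -0.01, as for all genes (-0.01). Klf2 was at 285, 1686 and 956 CPM in WT and 854, 1029.7 and 1311 CPM in cKO libraries, so that its WT libraries spanned the cKO range on both sides. Its log2 fold change was 0.13 (SE 0.56), and 0.78 without WT replicate 2 (unadjusted p = 0.11 from edgeR). Rora was at 869 ± 97.7 and 733 ± 112 CPM, with a log2 fold change of -0.25 (SE 0.20), and Gata3 was at 701 ± 180 and 590.2 ± 111 CPM (SD, n = 3 each), with a log2 fold change of -0.25 (SE 0.25).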

How the data were processed

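RNA-Seq was performed by the authors on tumor-infiltrating Tregs of 3 WT and 3 cKO libraries (paired-end, BGI-Seq500). The submitters' processing notes name Bowtie2 (version 2.3.4.3), RSEM (version 1.3.1) and GRCm38. The annotation is not given in the sources used here. Expected counts for each gene symbol, not normalized, were deposited by the authors, 21.6% of them not whole, and these were rounded to whole counts. Genes with at least 1 count (15315) were fitted together with edgeR (version 4.0.16) in R (version 4.3.3), with TMM scaling, a quasi-likelihood test of cKO against WT and Benjamini-Hochberg adjustment. SEs were the size of the log2 fold change over the root of F. The 95% intervals are for the mean difference between the groups, with the error taken from the spread between libraries. Exact permutation tests used scipy (version 1.17.1) and were two-sided. Replicates differed by more than sampling noise. Exon lengths and positions came from GENCODE vM21 (14757 tested symbols matched to 1 gene), and promoters from RefSeq GRCm38.p6. A planned comparison of the receptors' protein sequences was not run. The scripts were tested on simulated data. Alternatives were DESeq2 (version 1.42.0), other scalings, filterByExpr, voomWithQualityWeights of limma (version 3.58.1), a robust dispersion, a replicate block and each library left out.

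The receptors and lists were chosen with earlier results of these data known. The genes named are the 9 receptors, Xrcc6, the 3 most abundant members of each list and list members with an unadjusted p under 0.05, and the cell markers that define a type or are at 0 in a library. S1pr4, Gpr18, Xcr1, C5ar1 and Cmklr1, and the overlapping genes Fyco1 and Cntnap1, were named after their values were seen. Some genes of this rule are not reported here.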

Additional observations from a re-analysis of the deposited data

How the results depend on the processing

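The number of receptors with an adjusted p under 0.05 was 0 under each alternative run, with the lowest adjusted p at 0.677. The number with an unadjusted p under 0.05 was 0 with edgeR over all 6 libraries without a block and 0 to 1 with 1 library left out (Ccr10 without WT replicate 2, Cxcr3 without WT replicate 1, Ccr6 without WT replicate 3 or cKO replicate 1). The labels do not say whether the replicate numbers pair the libraries. Deviations from the group means correlated at 0.126, -0.054 and 0.196 across 11568 genes for numbers 1, 2 and 3. For 4 of 6 libraries the best correlation with the other group was with their own number, and whether a number stands for a shared batch was not tested. With the replicate block, 1 receptor (Ccr6, log2 fold change -0.52) had an unadjusted p under 0.05 and the number of all genes at that limit was 85 against 277 without it. That number was 140 with filterByExpr, 543 with voomWithQualityWeights, and 65 (without cKO replicate 3) to 874 (without WT replicate 1) with 1 library left out, 461 without WT replicate 2, 575 without WT replicate 3, 184 without cKO replicate 1 and 72 without cKO replicate 2. Genes with an adjusted p under 0.05 numbered 0 with edgeR, 2 with DESeq2, 0 to 1 with 1 library left out (1 without WT replicate 2) and 3 with DESeq2 without WT replicate 2.

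Of 125 receptor and alternative pairs, 113 kept their direction and 12 reversed. With library size only, Ccr2 moved to -0.0572 and Cxcr4 to -0.0477; Cxcr4 was -0.0188 with voomWithQualityWeights and -0.0349 with DESeq2 without WT replicate 2. With 1 library left out, Ccr2 ranged from -0.31 to 0.23, Cxcr4 from -0.13 to 0.28, Ccr8 from -0.48 to 0.26 and Cxcr6 from -0.67 to 0.53. Mean CPM under another scaling, added after seeing the data, stayed within 1 SD in 36 of 36 values, and list medians under the alternatives in 68 of 84. With 3 libraries a group, differences inside the printed intervals are not excluded. Over all 6 libraries, the adjusted p from edgeR also missed the change in the deleted gene Xrcc6 (adjusted p = 0.984). Ccr10 was limited by its counts.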
